A study of Homo sapiens with 18 samples.

Results

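The genes described here encode the nuclear subunits of the mitochondrial respiratory chain. They were taken by symbol: every probe of a gene named NDUFA, NDUFB, NDUFC, NDUFS or NDUFV with a number, SDHA to SDHD, UQCR, CYC1, COX4 to COX8 or ATP5. This gave 97 probes of 88 gene symbols, out of 21111 probes of 19289 symbols in the table. Complex I was represented by 39 probes of 37 genes, complex II by 4 probes of 4 genes, complex III by 12 probes of 10 genes, complex IV by 19 probes of 19 genes and complex V by 23 probes of 18 genes. NDUFA4 and its paralog NDUFA4L2 were counted with complex IV. ATP5S and ATP5SL, which the symbol brings into complex V, are factors and not subunits of the enzyme. More than 1 probe was present for 8 of the genes. The ATP5 symbols are older names, and ATP5L, ATP5B, ATP5O and ATP5I are now called ATP5MG, ATP5F1B, ATP5PO and ATP5ME.

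In the inner mitochondrial membrane, complex I takes electrons from NADH and complex II takes them from succinate. Both hand them to ubiquinone, complex III passes them on to cytochrome c, and complex IV reduces oxygen. The proton gradient that complexes I, III and IV build is used by complex V, the ATP synthase, to make ATP. All of these enzymes except complex II also contain subunits encoded in mitochondrial DNA, and none of those 13 transcripts was in the table.

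The libraries came from 3 established triple-negative breast cancer cell lines, BT549, Hs578T and SUM149PT, which lack the oestrogen and progesterone receptors and HER2 amplification. Each line was transfected with 50 nM of a SMARTpool siRNA against ASAP1 (siASAP1), an ArfGAP involved in membrane traffic and the actin cytoskeleton, or with a control pool made of siRNAs against kinases (siCtrl), and lysed after 72 h. There were 3 libraries per group and 18 in all, described by the study as biological triplicates. TempO-Seq, in which pairs of probes are ligated on the RNA and counted by sequencing, gave 1 value per probe. All values below are normalized counts, that is reads divided by the size factor of the library, and each Log2 FC is a difference between group means of log2(normalized count + 1). Probes bind with unequal efficiency, so levels are compared between libraries and not between genes.

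Library depth ranged from 4633629 to 12488575 reads. The ASAP1 probe measured 367, 729.7 and 783 normalized counts in the BT549 siASAP1 libraries and 1107, 966 and 944 in siCtrl, a mean of 62.3% of siCtrl. In Hs578T it measured 782, 825 and 1261 against 1641, 1414 and 2697, a mean of 49.9%. In SUM149PT it measured 282, 468 and 184 against 1087, 189 and 1314, a mean of 36.1%. The exact two-sided permutation p-value was 0.1 in BT549 and Hs578T, the smallest that 3 against 3 libraries allow, and 0.3 in SUM149PT. The library labelled siCtrl 2 of SUM149PT thus had ASAP1 at the level of the siASAP1 libraries of that line and went against its label, so results that rest on it are given with and without it. A single BT549 library, siCtrl 1, also stood apart in the respiratory chain genes. Some epithelial and mesenchymal markers differed between the lines: EPCAM was 18650 to 36679 in SUM149PT and at most 77.8 in the others, CDH1 was 87.9 to 263 in SUM149PT and 0 in the others, and the VIM probe with the higher values was 791 to 2965 in SUM149PT and at least 27346 in the others. KRT5 was 0 to 64.1 in SUM149PT and 0 in the others. KRT14 and mesenchymal CDH2 did not follow this split. KRT14 was 0 to 7.69 in SUM149PT and up to 12.8 in Hs578T. CDH2 was 1434 to 2325 in SUM149PT, above BT549 (253 to 691) and below Hs578T (3222 to 5543). Of the leukocyte markers PTPRC did not exceed 2.67 and CD3E was at 0, as were the endothelial markers CDH5 and VWF, while CD68 ranged from 4.4 to 321 and a probe of PECAM1 from 0 to 103.

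The promoters of these genes are known to hold sites for NRF1, for GABPA of the ETS family and for YY1, and are shown because most of the genes had lower values after siASAP1, as described below. Whether a motif goes with the Log2 FC of its gene was not tested. RefSeq promoters (GRCh38.p14) were present for 68 of the 88 genes, and the 250 bases before the start were searched on both strands. The NRF1 motif (GCGCA, any base, then GCGC) occurred in 14 of the 68 genes (20.6%), against 6.20% of all 27305 genes with a promoter. The ETS motif CCGGAAG occurred in 17 (25%) against 10.2%, and the YY1 motif AANATGGCG in 3 (4.41%) against 1.67%. At least 1 of the 3 motifs was found in 30 genes (44.1%), against 16.3% of all genes. The motifs do not overlap each other in letters, and a match describes these letters only. Below are the stretches before the start that no GENCODE v29 exon covers, for a gene with 2 NRF1 matches, a gene with a YY1 match that also differed between the lines, a gene with an ETS match, and a gene without any of the 3 that met the fold and p limits in SUM149PT. Matches are in capitals. They lie at chr3:120596086-120596308 (plus strand) for NDUFB4, chr11:68030462-68030616 (plus strand) for NDUFS8, chr17:75046986-75047183 (minus strand) for ATP5H and chr16:1959288-1959507 (plus strand) for NDUFB10.
NDUFB4: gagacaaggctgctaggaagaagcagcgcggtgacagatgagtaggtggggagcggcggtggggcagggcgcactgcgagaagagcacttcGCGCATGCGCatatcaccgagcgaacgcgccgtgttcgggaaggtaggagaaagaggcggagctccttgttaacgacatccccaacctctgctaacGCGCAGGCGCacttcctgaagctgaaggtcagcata
NDUFS8: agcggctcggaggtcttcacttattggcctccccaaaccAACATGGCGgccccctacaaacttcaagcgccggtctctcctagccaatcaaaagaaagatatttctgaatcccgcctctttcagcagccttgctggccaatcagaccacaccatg
ATP5H: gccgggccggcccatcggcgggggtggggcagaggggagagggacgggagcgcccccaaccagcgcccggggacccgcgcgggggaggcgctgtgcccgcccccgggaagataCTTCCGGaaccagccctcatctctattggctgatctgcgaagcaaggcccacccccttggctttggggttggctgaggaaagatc
NDUFB10: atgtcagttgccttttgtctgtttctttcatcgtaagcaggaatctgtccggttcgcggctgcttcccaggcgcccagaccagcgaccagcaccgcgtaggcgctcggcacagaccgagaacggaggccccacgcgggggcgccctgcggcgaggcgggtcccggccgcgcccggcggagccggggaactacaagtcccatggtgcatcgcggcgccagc

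Not every subunit could be followed. The probes of UQCRB, COX6A2 and COX7B2 had no read in any library, and 10 of the 97 probes never reached 10 reads. Among these were UQCRFS1, the Rieske iron-sulfur protein of complex III, with at most 6 reads, COX5B with at most 6, COX6C with at most 7 and NDUFB11 with at most 3, although these are obligate subunits. NDUFS7, a core subunit of complex I, reached 13 reads. A low value of a probe here is therefore not a sign of an absent transcript. A mean of at least 10 normalized counts over the 18 libraries was reached by 80 probes of 72 genes, and 17 probes were not tested there.

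In the 18 libraries together, with the cell line as covariate, most respiratory chain genes had lower values after siASAP1. The median Log2 FC of the 80 probes was -0.42, against 0.02 for all 10475 probes tested. A Log2 FC below 0 was found for 63 of them (78.8%), against 48.3% of all probes. At an unadjusted p under 0.05, 22 were lower (27.5%, against 8.17% of all probes) and 2 were higher (2.5%, against 7.68%). Only 2 passed an adjusted p under 0.05 in limma with Benjamini-Hochberg adjustment over all probes, and both were lower: ATP5L and UQCRHL (2.5%, against 1.06% of all probes lower and 0.678% higher). In these bulk lysates values are relative to all probes of a library, so they give neither the number of cells nor the amount of RNA per cell.

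By complex, the medians over the 18 libraries were -0.48 for complex I, -0.05 for complex II, -0.42 for complex III, -0.14 for complex IV and -0.53 for complex V. Of all probes, 48.3% were lower, and at an unadjusted p under 0.05 8.17% were lower and 7.68% higher. In complex I, 29 of 34 probes had a lower value and 12 (35.3%) reached an unadjusted p under 0.05, with 1 (2.94%) in the other direction. Complex III had 9 of 10 lower and 3 (30%) at that limit, and complex V had 15 of 20 lower and 6 (30%) at that limit. In complex IV only 7 of 12 were lower, with 1 probe (8.33%, near the share of all probes) at the limit in each direction. In complex II 3 of 4 were lower and none reached the limit. The higher one in complex IV was COX6B2, which reached the minimum mean only through SUM149PT. Differences between complexes were not tested.

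**Figure D1:**
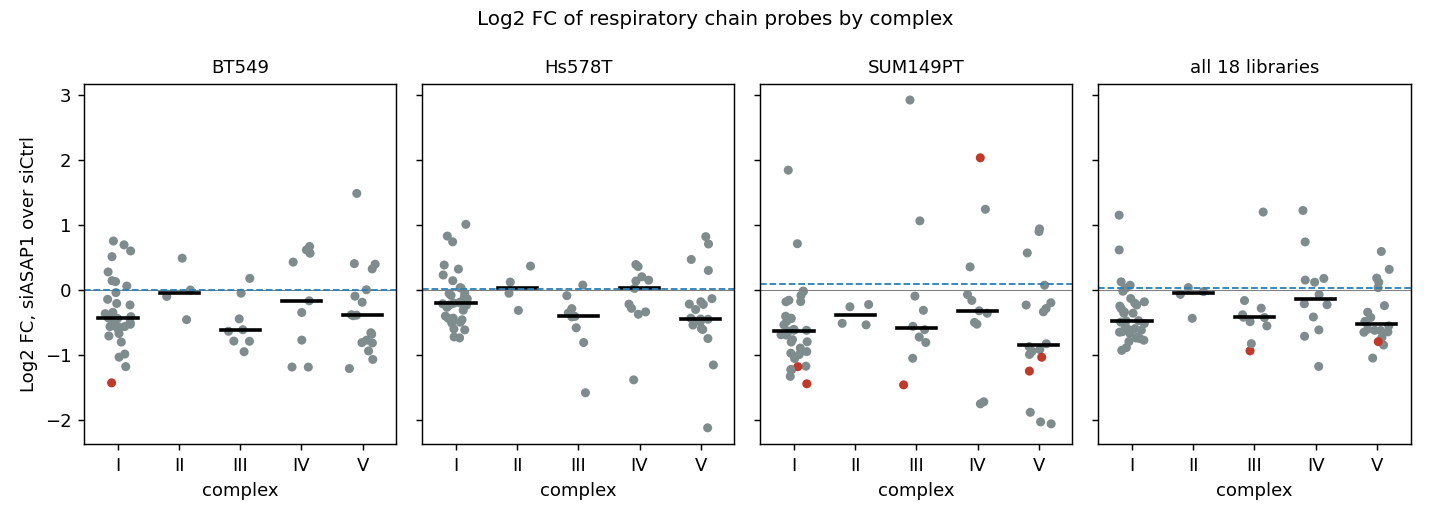
Log2 FC (vertical axis, siASAP1 over siCtrl) of each tested respiratory chain probe, a dot each, by complex (horizontal axis) in BT549, Hs578T, SUM149PT and all 18 libraries; black bars are medians of a complex and the dashed blue line is the median of all probes tested. Red dots met the fold and p limits in a line or an adjusted p under 0.05 over 18 libraries, and the medians of complexes I, III and V over 18 libraries were -0.48, -0.42 and -0.53.

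Within the lines, the median Log2 FC was -0.55 in SUM149PT (76 probes tested, 65 lower), -0.42 in BT549 (72 tested, 53 lower) and -0.22 in Hs578T (78 tested, 56 lower), while the medians of all probes were 0.09, -0.00 and 0.01. The shares lower were 85.5%, 73.6% and 71.8%, against 46.5%, 50.1% and 49.2% of all probes. Of the 70 probes tested in every line, 40 were lower in all 3, 3 were higher in all 3 and 27 were mixed. The share of all probes with the same sign in every line was not counted, so these 3 counts are not read as a result about the members. No probe of any gene reached an adjusted p under 0.05 within a line in limma. The interaction of treatment and line was tested directly: 0 of the 80 probes had an adjusted p under 0.05 in limma, the smallest being 0.873, and 0 had an unadjusted p under 0.05, against 0.00955% and 6.22% of all probes. A difference between the lines was therefore not detectable with 3 libraries per group.

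The study's limits for a differentially expressed gene, which ask for a Log2 FC beyond 1 in either direction together with an unadjusted p under 0.05, were met by 6 lower and 1 higher probe in SUM149PT (7.89% and 1.32%, against 4.29% and 5.27% of all probes). In BT549 they were met by 1 lower probe (1.39%, against 3.69%) and no higher one (against 3.28%), and in Hs578T by none in either direction (against 1.44% and 1.34%). At an unadjusted p under 0.05 alone there were 8 lower and 1 higher in SUM149PT (background 4.69% and 5.48%), 2 lower in BT549 (background 4.24%, with 0 higher against 3.56%) and 3 lower in Hs578T (background 2.75%, with 0 higher against 2.54%). The share of lower probes was thus near or below the background in BT549 and Hs578T. In groups that did not overlap, siASAP1 was the lower one for 12 probes in SUM149PT (15.8%, background 8.41%), 12 in Hs578T (15.4%, background 5.78%) and 5 in BT549 (6.94%, background 6.51%). It was the higher one for 1, 0 and 0 probes (backgrounds 8.87%, 6.31% and 7.35%).

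These values moved with single libraries. As the median deviation of the respiratory chain probes from the mean of their line, BT549 siCtrl 1 was at 0.84 and siCtrl 2 and 3 at -0.12 and -0.09, between the siASAP1 libraries at -0.29, 0.15 and -0.41. Without BT549 siCtrl 1 the median Log2 FC in BT549 was -0.04, against -0.03 for all probes, and 0 probes were lower and 1 higher by the limits (background 2.64% and 2.73%). The latter was NDUFA2, named after its values were seen (Log2 FC 1.71, SE 0.71, adjusted p 0.745 in limma). In Hs578T the siCtrl libraries were at 0.24, 0.24 and -0.11 and the siASAP1 libraries at -0.01, 0.07 and -0.25. In SUM149PT siCtrl 1 and 3 were at 0.49 and 0.33 and the library labelled siCtrl 2 at 0.02, against -0.64, 0.19 and -0.28 in siASAP1. The groups overlapped in each line, and the same deviation of all probes lay between -0.03 and 0.16 in the 18 libraries. Leaving out the library labelled siCtrl 2 changed the count in SUM149PT to 20 lower and 4 higher probes (background 8.94% and 14.4%), with a median of -0.69. Of the 7 probes named by the limits with all libraries, NDUFS5 (Log2 FC -1.37), ATP5L (-1.11), NDUFB10 (-1.67), NDUFA5 (-1.49), ATP5O (-1.32) and COX6B2 (1.86) met them without it, and a probe of UQCRH did not. The smallest adjusted p there was 0.0601, for NDUFA5, in limma. In the same line, leaving out siASAP1 1 gave 2 lower and 1 higher probe (background 2.88% and 2.29%), siASAP1 2 gave 15 and 0 (background 6.2% and 5.21%) and siASAP1 3 gave 3 and 3 (background 2.57% and 3.12%). Leaving out siCtrl 1 gave 3 lower and 1 higher (background 1.94% and 3.01%), and siCtrl 3 gave 2 and 1 (background 2.31% and 3.56%).

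**Figure D2:**
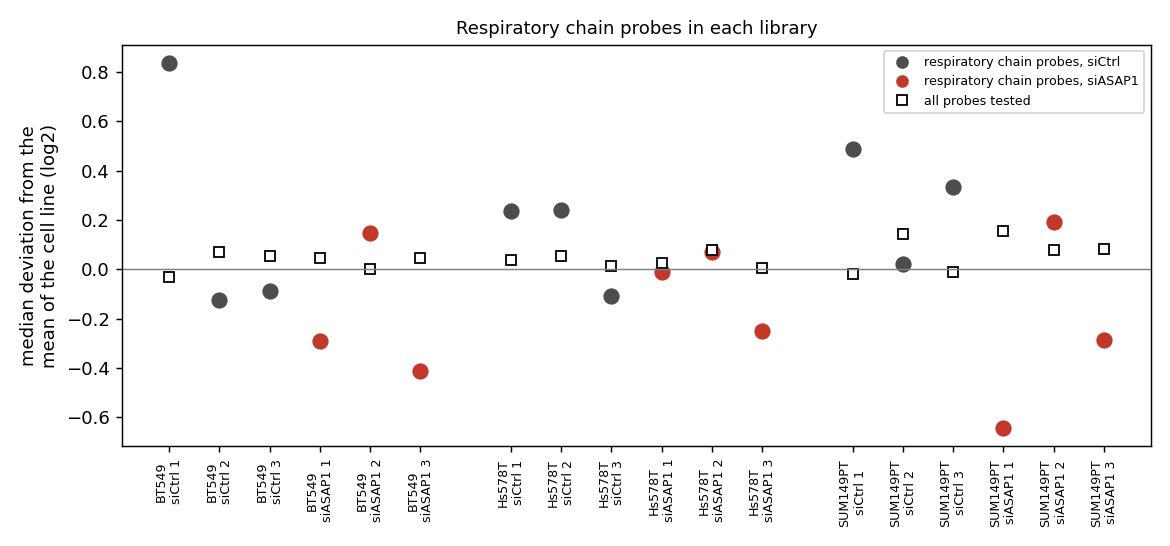
Median deviation (vertical axis, log2) of the respiratory chain probes tested in a line from their mean over its 6 libraries, as a filled circle per library (grey for siCtrl, red for siASAP1), with the median of all tested probes as an open square. BT549 siCtrl 1 stands at 0.84 and SUM149PT siASAP1 1 at -0.64, while the squares lie between -0.03 and 0.16.

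Over the 18 libraries the count at an adjusted p under 0.05 also moved with single libraries. It was 2 without the library labelled siCtrl 2 of SUM149PT, then NDUFA5 (adjusted p = 0.0483) and ATP5L (0.0493) in limma, with UQCRHL at 0.0668 (background 0.952% lower and 0.577% higher). At an unadjusted p under 0.05, 23 were lower and 2 higher there (background 7.81% and 8.2%). It was 0 without BT549 siCtrl 1, where the median stayed at -0.34 and 15 probes were lower at an unadjusted p under 0.05 (background 6.59%). Leaving out other libraries gave 0 to 3, for which the share of all probes is not given here.

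Complex I has its NADH-oxidising and iron-sulfur core made of subunits such as NDUFV1, NDUFS1 and NDUFS8, with many accessory subunits around it. The accessory subunit NDUFA5 (chr7:123536997-123558255, GRCh38, minus strand) measured 2006, 2693 and 2011 normalized counts in SUM149PT siASAP1 and 5619, 3295 and 6858 in siCtrl. In Hs578T it measured 2522, 2558 and 2728 against 3214, 3052 and 6269.8, and in BT549 1123, 1580.2 and 1508 against 2307, 1777 and 1633. Each siASAP1 library was below each siCtrl library of its line in all 3 lines, and the Log2 FC over 18 libraries was -0.74 (SE 0.19), with an adjusted p of 0.0557 in limma. In SUM149PT alone it was -1.18 (SE 0.40, adjusted p 0.403 in limma).

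NDUFS5, another accessory subunit (chr1:39026318-39034636), measured 1875, 2946 and 2167 in SUM149PT siASAP1 and 5797, 4387 and 6066 in siCtrl. These groups did not overlap, and the Log2 FC there was -1.23 (SE 0.36, adjusted p 0.376 in limma). In Hs578T the groups overlapped, with 5079.9, 4813 and 4490.3 against 4925, 4472 and 7645, and in BT549 too, with 2567, 3405 and 2355 against 6154, 3338 and 2839.7. Over 18 libraries the Log2 FC was -0.65 (SE 0.20, adjusted p 0.109 in limma).

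NDUFB10, an accessory subunit of the membrane arm (chr16:1959508-1961975) whose stretch printed above holds none of the 3 motifs, measured 126, 226 and 103 in SUM149PT siASAP1 and 481, 287 and 432 in siCtrl. The groups did not overlap and differed by a Log2 FC equal to -1.45 (SE 0.48, adjusted p 0.401 in limma). NDUFB6, also of the membrane arm (chr9:32552999-32573184), measured 5727, 1676 and 713 in BT549 siASAP1 and 6734, 4411 and 4519.7 in siCtrl. It was the only probe within the limits in BT549 (Log2 FC -1.43, SE 0.62, adjusted p 0.634 in limma), and its groups overlapped. In SUM149PT NDUFB6 was 1549, 1127 and 1958 in siASAP1, and 1628 and 1145 in siCtrl 1 and 3, but 9672 in the library labelled siCtrl 2.

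Among the core subunits, NDUFS8, an iron-sulfur protein, measured 179, 376 and 281 in SUM149PT siASAP1 against 558, 538 and 456, without overlap, and had a Log2 FC of -0.79 (SE 0.25, adjusted p 0.113 in limma) over 18 libraries. NDUFS1, the large iron-sulfur subunit, had -0.34 (SE 0.17, adjusted p 0.339 in limma). The probe of NDUFV1, which takes the electrons from NADH, had the highest Log2 FC of complex I, 1.15 (SE 0.50, adjusted p 0.258). Its values were low, from 4.8 to 98.6 normalized counts over the 18 libraries, with the highest in BT549 siASAP1 3. NDUFA7 had the lowest, -0.93 (SE 0.31, adjusted p 0.13).

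Complex II, which is also the succinate dehydrogenase of the TCA cycle, had no probe past the adjusted limit. SDHA, its flavoprotein, measured 10628, 21327 and 11152 in SUM149PT siASAP1 against 34582 and 33241 in siCtrl 1 and 3 and 6424 in the library labelled siCtrl 2. In Hs578T it was 10076, 13894 and 12322 against 8779, 9305 and 23526, and in BT549 6203, 11368 and 16739 against 10570.2, 5977 and 6789. The siCtrl values thus spanned the siASAP1 values in SUM149PT and Hs578T, and the Log2 FC over 18 libraries was -0.03 (SE 0.33, adjusted p 0.979 in limma). It turned to 0.10 when libraries were scaled by their totals and to 0.19 with quantile normalization. The iron-sulfur subunit SDHB had -0.44 (SE 0.26, adjusted p 0.443) and the membrane anchor SDHD had 0.03 (SE 0.30, adjusted p 0.973), the lowest and highest of the complex. The sign of SDHD turned with quantile normalization.

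In complex III, UQCRC1, a core protein of the matrix side (chr3:48599002-48610976, minus strand), measured 2024, 2149.9 and 1856 in SUM149PT siASAP1 and 3414, 3139 and 2695 in siCtrl. In Hs578T it measured 3015, 2890.4 and 2455 against 4039, 3976 and 3163, and in BT549 2356, 1997 and 1262 against 4488, 2044 and 2436. The groups did not overlap in SUM149PT and Hs578T, and the Log2 FC over 18 libraries was -0.56 (SE 0.17, adjusted p 0.101 in limma). CYC1, the cytochrome c1 that reduces cytochrome c, had -0.16 (SE 0.22, adjusted p 0.782).

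UQCRHL (chr1:15807169-15809348, minus strand) is a near copy of UQCRH, the hinge protein that helps the contact with cytochrome c, so its probe may share reads with UQCRH and its identity is uncertain. It measured 179.6, 176 and 94 in BT549 siASAP1 against 363, 287 and 208, and 211, 304 and 180.2 in Hs578T siASAP1 against 360.3, 441 and 394. In SUM149PT it measured 63.5, 112 and 185 against 205, 317 and 184, where the groups overlapped. The Log2 FC over 18 libraries was -0.94 (SE 0.23) with an adjusted p of 0.0424 in limma, which ranged from 0.0305 to 0.0909 when a library was left out. The adjusted p of UQCRHL in limma was 0.0685 with scaling by library totals, 0.0704 without a filter and 0.088 with the replicate number as block, so the call was lost there. The 3 probes of UQCRH itself had -0.83, -0.49 and -0.28. That with -0.83 met the limits in SUM149PT (67.5, 89.7 and 138 against 153, 456 and 256, Log2 FC -1.46, SE 0.56, adjusted p 0.453 in limma), while another had -0.10 there. Its highest value was that of the library labelled siCtrl 2, and without that library UQCRH no longer met the limits (Log2 FC -1.06, SE 0.52, adjusted p 0.239 in limma). UQCR11 had the highest Log2 FC of complex III, 1.20 (SE 0.96, adjusted p 0.595), on values from 0 to 86.7.

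**Figure D3:**
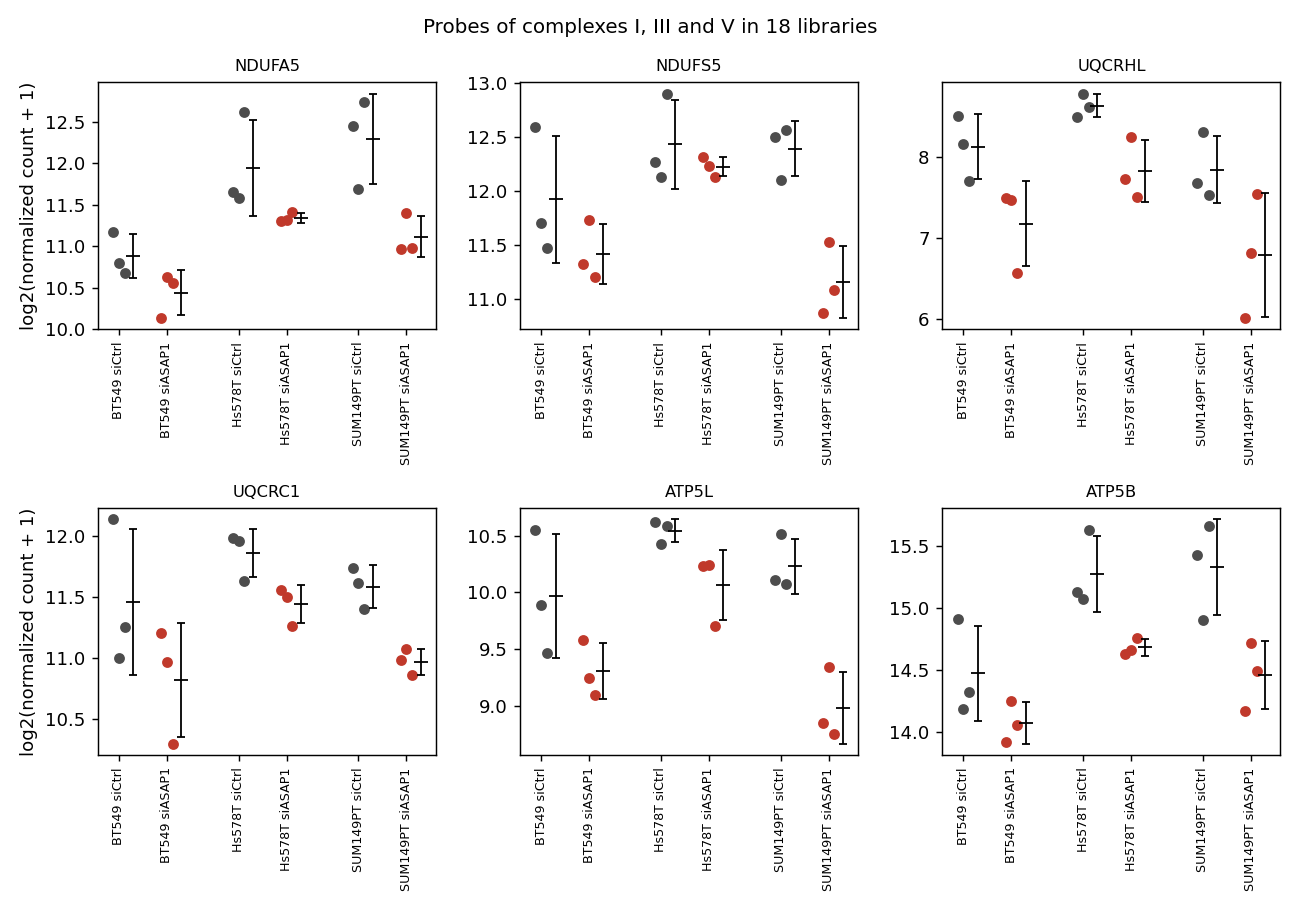
Values of 6 probes of complexes I, III and V (vertical axis, log2(normalized count + 1), a separate scale for each panel) in siCtrl (grey) and siASAP1 (red) libraries of each line (horizontal axis), with the mean and SD of 3 libraries beside the dots. The siASAP1 libraries of NDUFA5 lie below the siCtrl libraries in all 3 lines, and those of NDUFS5 only in SUM149PT.

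Complex V held the other probe past the adjusted limit. ATP5L, subunit g of the membrane sector, which helps the enzyme to form dimers (chr11:118401154-118431496), measured 460.4, 649 and 429.7 in SUM149PT siASAP1 and 1101, 1461 and 1077 in siCtrl. In Hs578T it measured 1207, 1212 and 834 against 1575, 1378 and 1534, and in BT549 765, 607 and 545 against 1501, 945 and 705. The groups did not overlap in SUM149PT and Hs578T and overlapped at the edge in BT549. Over 18 libraries the Log2 FC was -0.80 (SE 0.18) with an adjusted p of 0.031 in limma, and it ranged from 0.0208 to 0.0701 when a library was left out. For ATP5L the call was lost with scaling by library totals (adjusted p 0.0531), with quantile normalization (0.052), with the replicate number as block (0.0761) and without a filter (0.0571 in limma). In SUM149PT it was -1.25 (SE 0.38, adjusted p 0.377 in limma).

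ATP5B, the catalytic beta chain of the F1 head (chr12:56638175-56646068, minus strand), measured 18396, 26986 and 23004 in SUM149PT siASAP1 against 44146, 30735 and 51824, and 25312, 25922 and 27682 in Hs578T siASAP1 against 35846, 34424 and 50794. In BT549 the groups overlapped, with 15429, 19489.7 and 17013 against 30778, 18641 and 20427. Its Log2 FC over 18 libraries was -0.62 (SE 0.17, adjusted p 0.0709 in limma). The alpha chain, ATP5A1, was followed by a probe with few reads, 1.13, 18.5 and 2.13 normalized counts in Hs578T siASAP1 against 18.6, 26.9 and 18.7 in siCtrl, and was not tested in the other lines.

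ATP5O, the OSCP that joins the head to the stalk (chr21:33903453-33915980, minus strand), measured 1627, 2974 and 2086 in SUM149PT siASAP1 and 5174, 2985 and 5646 in siCtrl. The library labelled siCtrl 2 was close to the highest siASAP1 library, and the Log2 FC in this line was -1.04 (SE 0.41, adjusted p 0.461 in limma). ATP5I, subunit e of the membrane sector, measured 6665, 7752 and 6185 in Hs578T siASAP1 and 9922, 9582 and 11948 in siCtrl, without overlap. In SUM149PT it measured 9357, 13506 and 9542 against 24227 and 27254 in siCtrl 1 and 3 and 13072 in the library labelled siCtrl 2, which fell within the siASAP1 values. The Log2 FC over 18 libraries was -0.65 (SE 0.20, adjusted p 0.111 in limma) for ATP5I and -0.63 (SE 0.20, adjusted p 0.112) for ATP5O. At the ends of the complex stood a probe of ATP5G2, a subunit c gene, at -1.05 (SE 0.48, adjusted p 0.289) and a probe of ATP5J2, subunit f, at 0.59 (SE 0.78, adjusted p 0.781).

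Probes of the same gene did not always give the same value. In SUM149PT the Log2 FC of ATP5H, the stalk subunit d, was -0.99 for the probe with 205 to 1492 reads and -2.06 for that with 0 to 80 reads. In the other lines the signs of these ATP5H probes differed, with -0.10 and 0.32 in BT549 and -0.18 and 0.71 in Hs578T. The probes of NDUFB4 had -0.20 and 0.83 in Hs578T. Those of UQCRH had -1.46, -0.10 and 1.06 in SUM149PT, the last on 1 to 24 reads. The c subunit gene ATP5G3 had -1.21 and -1.07 in BT549, and ATP5C1, the gamma chain of the rotor, was followed by a probe with 2147 to 18873 reads and another with 0 to 72 reads.

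In complex IV, COX7A1 and COX6B2, tissue-specific isoforms, had high values in 1 line each. COX7A1 reached the minimum mean in the contrasts between lines only through Hs578T. COX6B2 reached it only through SUM149PT and only in the siASAP1 libraries. Their levels are therefore given as a description, with no test between lines. COX7A1, the isoform of subunit 7a known from heart and skeletal muscle (chr19:36150922-36152869, minus strand), measured 1084, 1192 and 878 normalized counts in Hs578T siCtrl and 1090.1, 1207 and 1142 in Hs578T siASAP1. In BT549 it was 1.25, 0 and 2.1 in siCtrl and 0, 6.61 and 2.74 in siASAP1. In SUM149PT it was 0 in 5 libraries and 1.6 in siCtrl 3. No library of another line came near those of Hs578T. As a ratio of normalized counts it was 1013 times higher in Hs578T than in BT549 in siCtrl (95% exact counting interval 395 to 3721, from 3637 and 4 reads) and 381 times higher in siASAP1 (207 to 795). Against SUM149PT it was at least 889 times higher in siASAP1, with a floor of 3 counts over the group. These intervals cover counting error only and not the spread between libraries. COX7A2, the widely expressed isoform, measured 202, 185 and 69.9 in Hs578T siCtrl, 324, 46.5 and 45.6 in BT549 siCtrl and 70.1, 39.2 and 41.6 in SUM149PT siCtrl, with overlap between lines. Its Log2 FC to siASAP1 over 18 libraries was -0.21 (SE 0.48, adjusted p 0.88 in limma), and leaving out BT549 siCtrl 1 or siASAP1 3 turned its sign.

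COX6B2, the isoform of subunit 6b known from testis (chr19:55349306-55354814, minus strand), measured 75.4, 186 and 67 in SUM149PT siASAP1 and 21.5, 18.2 and 32 in siCtrl. It was 0 in all Hs578T libraries, and in BT549 0, 3.78 and 9.13 in siASAP1 and 0, 0.629 and 0 in siCtrl. Each siASAP1 library of SUM149PT was above each siCtrl library, and COX6B2 was the 1 respiratory chain probe higher by the limits there (Log2 FC 2.03, SE 0.64, adjusted p 0.384 in limma). SUM149PT was 25.8 times above BT549 in siASAP1 (95% exact counting interval 15.1 to 47.9, from 253 and 14 reads) and at least 130.3 times above Hs578T, with a floor of 3 counts over the group. The interval leaves out the spread between libraries. Over 18 libraries the Log2 FC of COX6B2 was 1.22 (SE 0.46, adjusted p 0.191), the highest of complex IV. It reached the minimum mean there only through SUM149PT, so this value is not an effect shared by the lines. COX6A1 had the lowest, -1.18 (SE 0.62, adjusted p 0.366), on values of 0 to 59.6. COX6B1, the common isoform, had 0.15 (adjusted p 0.921).

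**Figure D4:**
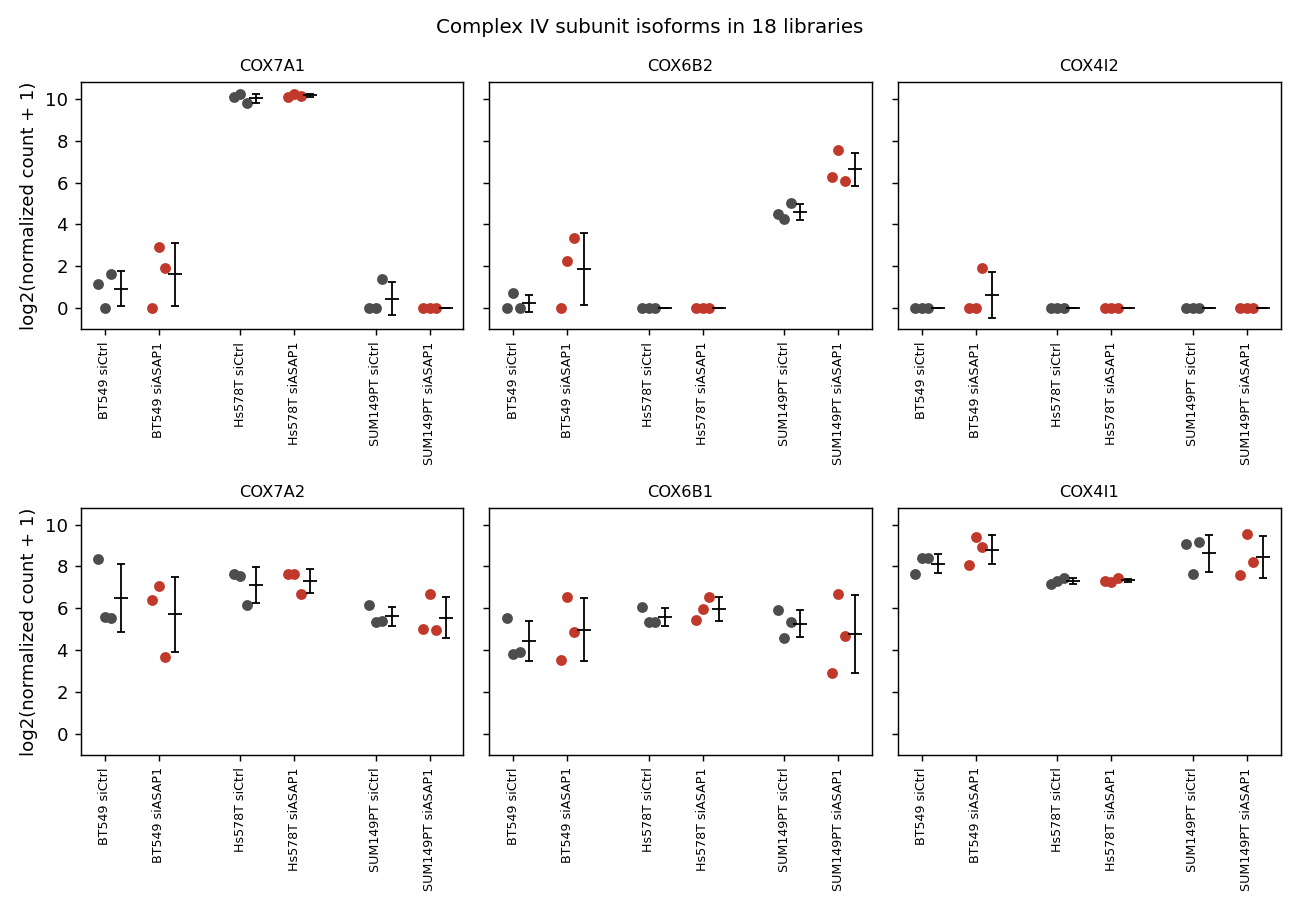
Values (vertical axis, log2(normalized count + 1), the same scale in all panels) of COX7A1, COX6B2 and COX4I2 above their common isoforms COX7A2, COX6B1 and COX4I1 in the libraries of each line (horizontal axis), grey for siCtrl and red for siASAP1, with the mean and SD of 3 libraries. COX7A1 is high in Hs578T only (878 to 1207 normalized counts) and COX6B2 in SUM149PT only (18.2 to 186).

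Of the other isoform pairs, COX4I2 reached at most 3 reads and COX4I1 had a Log2 FC of 0.17 (adjusted p 0.83 in limma). COX6A2 and COX7B2 had no reads, COX8C reached at most 7 and NDUFA4L2, an isoform induced by hypoxia, at most 10. COX8A measured 41, 618 and 109 in SUM149PT siASAP1, 1169.9 and 1007 in siCtrl 1 and 3, and 92 in the library labelled siCtrl 2 (Log2 FC over 18 libraries -0.71, adjusted p 0.603). COX7B had -0.23 (adjusted p 0.887) and NDUFA4 0.74 (SE 0.36, adjusted p 0.317).

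Between the lines, 80 probes were tested in the 9 siCtrl libraries. The median difference was 0.63 for Hs578T minus BT549, 0.12 for SUM149PT minus BT549 and -0.64 for SUM149PT minus Hs578T, against -0.01, -0.04 and -0.00 for all probes, so the values were highest in Hs578T. The size moved with single libraries. Without the library labelled siCtrl 2 of SUM149PT the medians were 0.67, 0.18 and -0.35, against -0.01, -0.10 and -0.08 for all probes. Without BT549 siCtrl 1 they were 1.03, 0.36 and -0.70, against -0.04, -0.06 and -0.00. In the siASAP1 libraries, which are other samples of the same lines, the median differences were 0.97, -0.07 and -1.07 over 77 probes. At an adjusted p under 0.05, 3 were higher in Hs578T than in BT549 (3.75%, against 7.58% of all probes) and 0 lower (against 6.28%, and 0 at an unadjusted p under 0.05 in limma). In SUM149PT against BT549 there were 3 higher (against 9.4%) and 1 lower (against 8.8%), and in SUM149PT against Hs578T 0 higher (against 9.68%, and 2 at an unadjusted p under 0.05) and 5 lower (6.25%, against 10.6%). All of these shares were below those of all probes. In the siASAP1 libraries, 13 were higher and 1 lower in Hs578T than in BT549 (16.9% and 1.3%, against 10.7% and 9.2%), 2 higher and 20 lower in SUM149PT than in Hs578T (2.60% and 26%, against 14.4% and 14%), and 2 in each direction in SUM149PT against BT549 (against 11.4% and 10.8%). The 3 contrasts within a treatment share libraries. COX7A1, which entered through Hs578T alone, is 1 of the 3 and 1 of the 5 called in siCtrl for Hs578T against BT549 and SUM149PT, and it was also called in these contrasts in siASAP1, where COX6B2, which entered through SUM149PT alone, is 1 of the 2 higher in each contrast of that line.

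The genes named by these contrasts in siCtrl, besides COX7A1, were of complexes I, IV and V. Complex I held 35 of the 80 probes tested. NDUFS8 was higher in Hs578T (909, 1354 and 728) than in BT549 (663, 179 and 215), by 1.71 (adjusted p = 0.0459 in limma). NDUFA3, an accessory subunit, was higher in Hs578T (4379, 4853 and 5506) than in SUM149PT (1844, 574 and 1715), with a difference of -2.002 for SUM149PT minus Hs578T (adjusted p = 0.0189). NDUFB1, of the membrane arm, differed by -1.43 (11927, 13446 and 7949 in Hs578T, and 3225, 6694 and 2992 in SUM149PT, adjusted p = 0.042 in limma). NDUFS4, an accessory subunit next to the core, was lowest in SUM149PT (134, 104 and 166), against 470.0, 557 and 275 in Hs578T (difference -1.64, adjusted p = 0.0144) and 346, 396 and 253 in BT549 (difference -1.29, adjusted p = 0.0463). Each of these calls was lost in at least 1 omission of a siCtrl library. The adjusted p in limma then ranged from 0.00445 to 0.185 for NDUFS8, from 0.0149 to 0.0636 for NDUFA3 and from 0.00665 to 0.15 for NDUFB1. For NDUFS4 it ranged from 0.00858 to 0.0711 against Hs578T and from 0.0329 to 0.165 against BT549.

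NDUFA5 was higher in SUM149PT than in BT549 by 1.41 (adjusted p = 0.033) and ATP5I by 1.37 (adjusted p = 0.0488). COX7A2L, a factor of supercomplex assembly (187, 151 and 99.1 in SUM149PT, 207, 193 and 124 in Hs578T, 42.4, 42.8 and 65.9 in BT549), was higher than BT549 in SUM149PT by 1.499 (adjusted p = 0.0404) and in Hs578T by 1.77 (adjusted p = 0.0241). A probe of ATP5G3 was lower in SUM149PT (45.8, 72 and 43.2) than in Hs578T (312, 344 and 76.8), with a difference of -1.93 (adjusted p = 0.047) in limma. These calls were likewise lost in at least 1 omission of a siCtrl library, with an adjusted p in limma of 0.00584 to 0.125 for NDUFA5, 0.00926 to 0.18 for ATP5I, 0.0141 to 0.106 for COX7A2L in Hs578T, 0.0375 to 0.151 for COX7A2L in SUM149PT and 0.00404 to 0.185 for ATP5G3. Of the probes called in siCtrl, NDUFS8 was also called between Hs578T and BT549 in the siASAP1 libraries. NDUFB1, NDUFS4 and NDUFA3 were called again between SUM149PT and Hs578T, and none between SUM149PT and BT549 (0 of 4 and 0 of 4). COX7A1 was called again in both contrasts of Hs578T, but it entered through that line alone, so its calls add no support. With COX7A1 counted, 2 of 3 and 4 of 5 were called again, among 14 and 22 called in siASAP1. The share of all probes called in both treatments was not counted.

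Single libraries set these counts too. Without the library labelled siCtrl 2 of SUM149PT, 15 probes were higher in Hs578T than in BT549 (background 11.9%), 11 were higher and 3 lower in SUM149PT than in BT549 (background 15.2% and 19%), and 3 were higher and 13 lower in SUM149PT than in Hs578T (background 13.6% and 18.1%). Without BT549 siCtrl 1, 8 were higher in Hs578T than in BT549 (background 7.6%), 4 were higher in SUM149PT than in BT549 (background 8.32%) and 9 were lower in SUM149PT than in Hs578T (background 10.6%). Other omissions lowered the counts, and the share of all probes is not given for them. These lower counts are therefore not read as a result about the members. Without Hs578T siCtrl 1 there were 1 higher in Hs578T than in BT549, 0 higher in SUM149PT than in BT549 and 1 lower in SUM149PT than in Hs578T, and without Hs578T siCtrl 2 there was 1 of each. Without BT549 siCtrl 2 these counts were 1, 0 and 3, and without BT549 siCtrl 3 they were 2, 0 and 3. Without SUM149PT siCtrl 1 or 3, 0 or 1 were higher in SUM149PT than in BT549.

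The response to siASAP1 was also compared with GC content, since GC separated libraries. The correlation across the respiratory chain probes between GC content of the transcript and the deviation of a library from its line ranged from -0.37 to 0.45 over the 18 libraries, and in SUM149PT it was 0.18, -0.32 and 0.16 in the libraries labelled siCtrl 1, 2 and 3. For Log2 FC it was 0.31 in BT549, 0.04 in Hs578T, -0.00 in SUM149PT and 0.15 over 18 libraries, over 72 to 80 probes that are not independent replicates. In BT549 the median Log2 FC was -0.19 for probes above the median GC content and -0.57 for the others. With the libraries corrected for GC content in 20 bins, a choice made after seeing the data, the median over 18 libraries was -0.40 and 3 probes were lower at an adjusted p under 0.05.

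**Figure D5:**
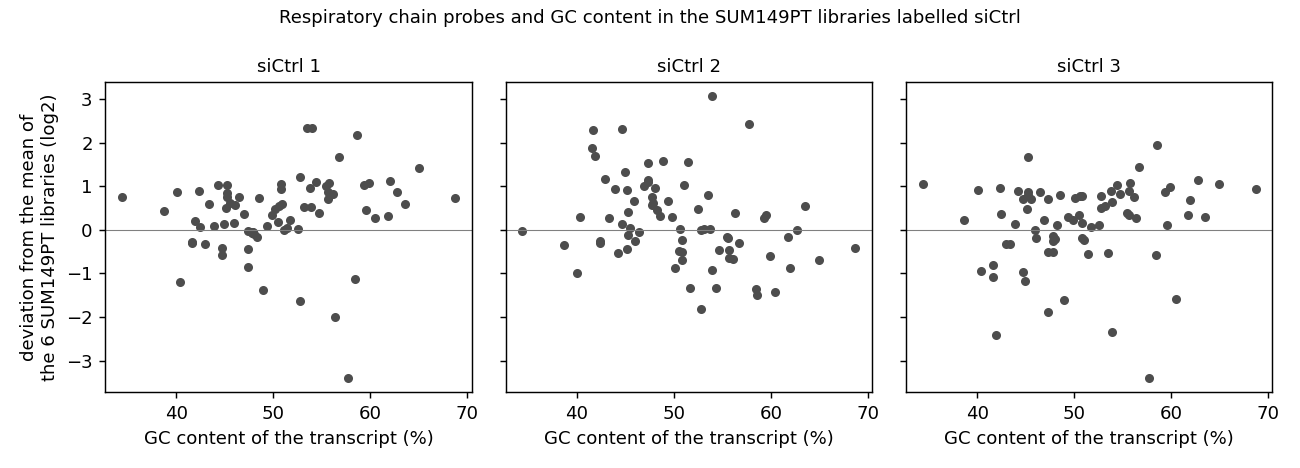
Deviation of each tested respiratory chain probe, a dot, from its mean over the 6 SUM149PT libraries (vertical axis, log2) against GC content of its transcript (horizontal axis, %) in the libraries labelled siCtrl 1, 2 and 3. The slope is upward in siCtrl 1 and 3 (r = 0.18 and 0.16 across 76 probes) and downward in siCtrl 2 (r = -0.32).

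Other genes of the pathway were followed by lists. Of the factors that assemble the complexes, 14 probes tested for complex I had a median Log2 FC of 0.04 over 18 libraries with none past the adjusted limit, 17 for complex IV had 0.06 with 1 lower, and 4 for complex V had -0.73 with 1 lower. These were COX15, which makes haem A (Log2 FC -0.81, SE 0.20, adjusted p 0.0446 in limma), and ATPAF1, a chaperone of the F1 beta chain (-1.14, SE 0.22, adjusted p 0.00925). Assembly factors of complex III (4 probes, median -0.24) and complex II (2 probes, median 0.25) had none. The 12 genes of coenzyme Q synthesis and cytochrome c had a median of -0.03, with 0.79 for cytochrome c itself, CYCS (SE 0.61, adjusted p 0.579).

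Among the transcriptional regulators of these genes, 11 probes had a median Log2 FC of 0.10 and 0 passed an adjusted p under 0.05 in limma (0 at an unadjusted p under 0.05). The coactivators PPARGC1A, PPARGC1B and PPRC1 had -0.22, 0.24 and 0.51, NRF1 had 0.33, GABPA had 0.10, and the probes of TFAM, which packages mitochondrial DNA and activates its transcription, had 0.38 and 0.60. The probe of ESRRA was at 0 in all libraries. The TCA cycle (11 probes) had a median of -0.22 and targets of HIF (10 probes) had -0.15, none past the adjusted limit. Epithelial markers (6 probes) had a median of 0.31 and mesenchymal markers (10 probes) -0.12, with 1 probe of FN1, fibronectin, higher (1.04, SE 0.26, adjusted p 0.0477), and the leukocyte and endothelial lists had 1 tested probe each. CD68, a marker of macrophages, had a Log2 FC of 1.28 (SE 0.42, adjusted p 0.129 in limma) over 18 libraries. It met the fold and p limits in BT549 (2.12, SE 0.78, adjusted p 0.599) and Hs578T (1.41, SE 0.33, adjusted p 0.711) and had 0.31 in SUM149PT, while PTPRC and CD3E were at or near 0 as given above. The PECAM1 probe had -0.01. Their part in the respiratory chain values was not tested.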

How the data were processed

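TempO-Seq profiles of BT549, Hs578T and SUM149PT with siASAP1 or siCtrl (3 libraries each, 18 in all) were used. The deposited values are log2(read count divided by the size factor of the library, plus 1), made by the authors, whose methods name DESeq2 size factors. The submitters' processing notes also name bcl2fastq and Bowtie, and a genome build is not given in the sources used here. Whole reads were recovered for 100% of the values (tolerance 0.02), at 4633629 to 12488575 reads per library, and intervals cover counting error only. Probes with a mean of at least 10 normalized counts over the libraries of a fit were tested with limma 3.58.1 (R 4.3.3, lmFit and eBayes with trend) on the log2 values, adjusted over all probes, within each line, over 18 libraries with the line as covariate, for the interaction, and between lines. No negative binomial test was run, and limma with voom weights on the recovered reads was an alternative. The scripts were tested on simulated data. Members and gene lists were chosen with earlier results of these data known. Named genes are ASAP1, members meeting the fold and p limits in a line, those past the adjusted limit, the lowest and highest of each complex, up to 5 per direction for each pair of lines, core subunits and isoform pairs. Further members are named where leaving out a library or a second probe brings them up, which was decided after their values were seen. Replicates with the same number were checked for pairing from the correlation of their deviations, which was -0.33, -0.66 and -0.35 in SUM149PT, -0.19, -0.39 and 0.14 in BT549 and 0.10, 0.42 and 0.41 in Hs578T. The siCtrl library of the same number was the best match for each siASAP1 library in Hs578T, for replicate 3 in BT549 and for none in SUM149PT. The lines thus differed, and the numbers were not taken to pair the libraries in the main fits. Alternatives were scaling by library totals, quantile normalization, no filter, a minimum mean of 50, a pseudocount of 0.1, the replicate number as block, 1 fit of all 18 libraries, summed probes of a gene, voom weights, leaving out each library and, added after seeing the data, a GC correction. Gene positions are from GENCODE v29 (GRCh38) and promoters from RefSeq (GRCh38.p14). Antisense or overlapping genes were not examined. A named core subunit and a marker are not reported here.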

Additional observations from a re-analysis of the deposited data

How the results depend on the processing

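The median Log2 FC of the respiratory chain probes kept its sign within each line and over 18 libraries in all alternatives, with values from -0.60 to -0.04 in BT549, -0.35 to -0.08 in Hs578T, -0.77 to -0.35 in SUM149PT and -0.49 to -0.32 over 18 libraries when each library was left out. With scaling by library totals it was -0.34 in BT549, -0.11 in Hs578T, -0.34 in SUM149PT and -0.29 over 18 libraries. That scaling moved the median of all probes to 0.06, 0.12, 0.30 and 0.15, so relative to it the members were at -0.40, -0.23, -0.64 and -0.44. The median of SUM149PT minus BT549 in siCtrl turned from 0.12 to -0.04 with totals, and relative to all probes it was 0.16 and 0.17. The counts of calls moved more, and the cause was not tested. Most counts below stand without the share of all probes called. They are not read as a result about the members. With totals, 0 probes were lower by the limits in BT549 and 3 in SUM149PT, 0 were lower over 18 libraries at an adjusted p under 0.05, and 1 was higher in Hs578T and 1 in SUM149PT than in BT549 in siCtrl. With quantile normalization, 1 was lower over 18 libraries and 0 were lower in SUM149PT than in BT549. Without a filter, 5 were lower in BT549, 0 over 18 libraries and 0 in SUM149PT against BT549, and 1 was higher and 3 lower in SUM149PT against Hs578T. With a minimum mean of 50, 2 were lower in BT549 and 4 over 18 libraries, and with a pseudocount of 0.1, 3 were lower in SUM149PT than in Hs578T. With the replicate block, 3 were lower in BT549, 0 lower and 0 higher in SUM149PT, and 0 lower over 18 libraries, and the other counts with such a fit stayed within 1.5 times. Between lines no block was fitted. With all 18 libraries in 1 fit, 2 were lower and 1 higher in BT549, 11 lower in SUM149PT, 8 higher in Hs578T than in BT549, and 1 higher and 8 lower in SUM149PT than in Hs578T. With voom weights, 5 were higher in Hs578T than in BT549 and 0 lower in SUM149PT than in BT549. With the GC correction, 2 were lower in BT549, 0 lower in SUM149PT than in BT549 and 1 higher in SUM149PT than in Hs578T, and with summed probes 2 were lower in BT549. Leaving out each library gave 0 to 8 lower and 0 to 1 higher in BT549, 0 to 4 lower and 0 to 1 higher in Hs578T, 2 to 20 lower and 0 to 4 higher in SUM149PT, 0 to 3 lower over 18 libraries, 1 to 15 higher in Hs578T than in BT549, 0 to 11 higher and 0 to 3 lower in SUM149PT than in BT549, and 0 to 3 higher and 1 to 13 lower in SUM149PT than in Hs578T. Of all probes, 13.2% were lower where BT549 had 8, 3.09% where Hs578T had 4 and 8.94% where SUM149PT had 20. The sign of the Log2 FC over 18 libraries turned for genes without a call: with totals SDHA was 0.10 and COX7A2L 0.0566, with quantile normalization SDHA was 0.19, SDHD -0.0013 and COX7A1 -0.0711, and with the pseudocount COX7A1 was -0.11. Leaving out each library gave SDHA -0.22 to 0.13, SDHD -0.14 to 0.16, COX6B1 -0.10 to 0.46, COX7A1 -0.11 to 0.31, COX7A2 -0.38 to 0.11, COX7A2L -0.18 to 0.0722 and COX7B -0.59 to 0.00737. Replicates of a group differed by more than counting error in every group (chi-square per degree of freedom 10.1 to 247), so precision was set by the spread between 3 libraries, and a Log2 FC within a line had a wide error at low counts.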
